A study of Mus musculus with 4 samples.

Results

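The genes described here drive or restrain the cell division cycle in the newborn mouse ureter: 44 genes of DNA replication, mitosis, the cyclins and their kinases, and the inhibitors of those kinases. A member was any probe set (a group of short array probes for 1 transcript) whose annotation gave exactly 1 gene symbol from that list, and 102 of the 45101 probe sets on the array met this. They stand for 43 of the 44 genes, out of 18193 genes with such a probe set. Ccnb1, the cyclin of entry into mitosis, had no such probe set and is not analysed here. Transcripts were measured on Affymetrix MOE430 arrays in 3 ureter samples and 1 reference. The ureters were whole, freed of kidney and bladder, not pooled, and came from male FVB/N mice at postnatal day 1 (Theiler stage 27) with an SMGA/EGFP transgene. For the reference, whole FVB/N mice of the same age, of both sexes and without a transgene, were pooled. Effects of the tissue, the transgene, the sex and the pooling therefore cannot be told apart. All samples went through 2 rounds of RNA amplification.

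A dividing cell copies its DNA in S phase and separates the copies in mitosis. D-type cyclins with Cdk4 and Cdk6, and then E-type cyclins with Cdk2, switch off the Rb1 brake and release E2F factors, which turn on replication genes, while a later wave of genes for the spindle, the chromosomes and cell cleavage is turned on through promoter elements called CHR and CCAAT. Newborn tissues of many organs still grow, and the ureter at this age is a tube of urothelium, mesenchyme and smooth muscle. In a whole tissue, fewer dividing cells and less RNA per dividing cell cannot be told apart.

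The promoters of many of these genes hold elements known from the replication wave or the mitotic wave, so a few are shown before the values. RefSeq promoter windows (build GRCm38.p6, 250 bases before to 50 after the annotated start) matched 36 of the 44 members in 40 windows; Aurkb, Ccna2, Ccnd1, Ccnd2, Ccne2, Kif20a, Mcm4 and Rb1 were not matched. Each window was searched on both strands for CHR (TTTGAA), the CCAAT box (CCAAT) and an E2F element (TTCCCGC or TTGGCGC). The second E2F form can share letters with a CCAAT box read from the opposite strand. The sequences below give the 250 bases before the start, 5′ to 3′ on the gene's strand, with these matches in capitals, whichever strand they lie on. For the replication genes Mcm6 (chr1:128359706-128359955, minus strand), Mcm5 (chr8:75109259-75109508, plus strand) and Rrm1 (chr7:102441445-102441694, plus strand) the capitals mark E2F elements and CCAAT boxes.
Mcm6: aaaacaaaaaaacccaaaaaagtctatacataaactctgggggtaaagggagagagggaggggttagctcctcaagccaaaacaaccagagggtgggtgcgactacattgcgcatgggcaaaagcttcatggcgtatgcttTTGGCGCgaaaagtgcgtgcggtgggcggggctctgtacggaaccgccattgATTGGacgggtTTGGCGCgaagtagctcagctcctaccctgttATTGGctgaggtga
Mcm5: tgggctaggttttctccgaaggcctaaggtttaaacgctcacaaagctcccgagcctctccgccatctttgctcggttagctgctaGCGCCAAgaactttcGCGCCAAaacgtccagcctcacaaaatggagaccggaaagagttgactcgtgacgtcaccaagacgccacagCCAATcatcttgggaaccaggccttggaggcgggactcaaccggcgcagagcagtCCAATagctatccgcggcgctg
Rrm1: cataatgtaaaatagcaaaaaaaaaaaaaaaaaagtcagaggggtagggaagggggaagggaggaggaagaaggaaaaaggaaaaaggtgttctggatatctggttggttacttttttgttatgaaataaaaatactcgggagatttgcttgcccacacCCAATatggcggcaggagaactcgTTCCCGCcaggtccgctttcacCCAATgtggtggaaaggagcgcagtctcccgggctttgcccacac
For the mitotic genes Cdc20 (chr4:118437344-118437593, minus strand), Cdk1 (chr10:69352913-69353162, minus strand) and Kif11 (chr19:37376132-37376381, plus strand) the capitals mark CHR and CCAAT boxes; 1 E2F element in Cdk1, at base -178, is not in capitals.
Cdc20: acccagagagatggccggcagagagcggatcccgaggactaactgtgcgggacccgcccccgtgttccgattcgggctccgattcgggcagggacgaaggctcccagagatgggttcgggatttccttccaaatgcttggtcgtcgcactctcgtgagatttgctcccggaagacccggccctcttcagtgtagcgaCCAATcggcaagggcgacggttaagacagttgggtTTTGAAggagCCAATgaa
Cdk1: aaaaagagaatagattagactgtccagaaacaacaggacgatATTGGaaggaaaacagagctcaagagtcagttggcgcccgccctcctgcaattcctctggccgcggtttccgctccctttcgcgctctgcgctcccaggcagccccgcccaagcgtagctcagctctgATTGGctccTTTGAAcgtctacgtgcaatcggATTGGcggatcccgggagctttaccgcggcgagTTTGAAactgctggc
Kif11: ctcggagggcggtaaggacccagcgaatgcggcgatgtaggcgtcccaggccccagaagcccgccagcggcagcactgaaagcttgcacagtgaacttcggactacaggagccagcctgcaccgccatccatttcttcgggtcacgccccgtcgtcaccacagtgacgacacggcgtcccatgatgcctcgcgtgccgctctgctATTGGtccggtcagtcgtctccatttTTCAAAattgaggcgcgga
In Cdc20 the CHR match began at base -18 from the start, in Kif11 at -19, and in Cdk1 at -71 and -15.

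CHR was found in 12 of 18 windows of mitotic genes (66.7%) and in 1 of 10 of replication genes, against 17.9% of all 32851 windows in the table. The E2F element was found in 6 of 10 windows of replication genes (60.0%), from Mcm3, Mcm5, Mcm6, Mcm7 and Rrm1, and in 3 of 18 of mitotic genes (16.7%), against 6.81% of all. CCAAT boxes were common in both, in 9 of 10 and 15 of 18, against 37.4% of all windows, and all 12 mitotic windows with CHR also held a CCAAT box. None of the 7 windows of the G1 genes or the 5 of the inhibitors held CHR. Among genes outside the member list, CHR was found in 65.3% of 49 windows of other mitotic genes and the E2F element in 24.5% of them; for 48 windows of other replication genes the shares were 16.7% and 47.9%. For 26 windows of other G1/S control genes they were 34.6% and 23.1%, and for 18 of other inhibitors 22.2% and 5.56%. CCAAT boxes were found in 43.8% of the windows of other replication genes, near the share of all windows, and in 73.5% of other mitotic genes. For other G1/S control genes and other inhibitors the shares were 38.5% and 72.2%. A match is a description of these letters and was not tested for binding, and the plot of motif shares by list gives the same percentages.

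**Figure D1:**
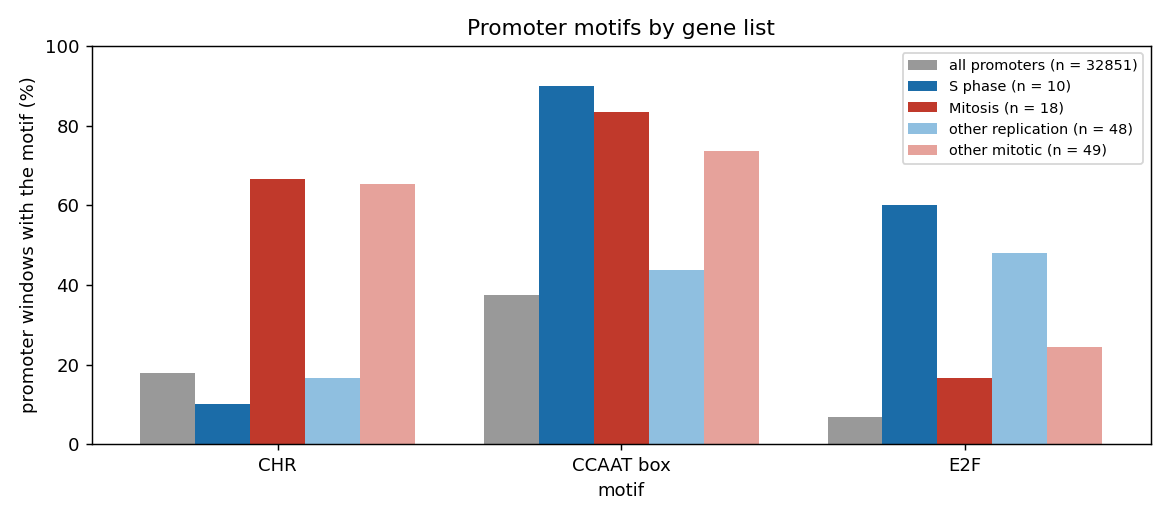
Share of promoter windows (%) that hold each of 3 motifs on either strand, as bars for all windows (n = 32851) and for 4 gene lists with their numbers of windows. CHR stands at 66.7% in mitotic genes and the E2F element at 60.0% in replication genes.

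The deposited values are intensities, which were made to share 1 distribution across the arrays and taken as log2 with a small offset. Levels below are these normalized intensities, and differences are the mean log2 level of the 3 ureters minus that of the 1 reference, given ± the SE that limma estimated. The single reference was assumed to vary like the ureters, and no label says that the ureters came from separate animals, so the spread behind each p-value may be technical. Of the 102 member probe sets, 80 passed the filter on dim probe sets, from 42 genes. Tyms, thymidylate synthase, had 4 probe sets that all failed it, with no array above 244. A further probe set annotated to Tyms together with other symbols was not a member, so its level is not given here. Each gene is represented by its tested probe set of the highest mean level. Defining markers of the labelled tissue were high: 5 of 5 tested genes of the ureteric mesenchyme, 6 of 8 of smooth muscle and 7 of 12 of the urothelium were higher in the ureters. Among all genes 2.94% were higher. The marker lists were chosen with earlier results of these data known, so these counts are no independent check. Des of smooth muscle (-1.35) and Krt5 of the urothelium (-1.74) lay below the reference in every ureter without passing (adjusted p = 0.0900 and 0.0635).

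As a whole few cell cycle genes were called, and their median difference lay near that of all genes with the scaling used here. With median-centred arrays the medians of the 4 roles ran from 0.42 to 1.20, where that of all probe sets was 0.60. By limma's adjusted p under 0.05 over all probe sets, 1 of 42 member genes was higher in the ureters, the cyclin gene Ccne2, and 0 were lower. This is 2.38% of the members, against 7.71% of all 13721 genes tested by the same rule (2.94% higher and 4.77% lower). At an unadjusted p under 0.05, 5 member genes were higher and 1 was lower, 14.3% of the members against 26.3% of all genes. The median difference of the 42 was 0.13 and that of all genes 0.10. All 3 ureters lay above the reference for 17 member genes and below it for 9, 26 of 42 without overlap, whereas 39.9% and 30.7% of all genes did so, 70.6% in all. Among the 80 probe sets the same single call was made, against 6.17% of all 27022 (2.68% higher and 3.49% lower). For 33 of the 80 all ureters lay above the reference and for 16 below it, against 39.1% and 29.3% of all, 68.4% together. A difference that misses the threshold is not shown to be absent: with these SEs a member had to differ by 0.89 (Rrm2) to 4.38 (Ccne1) to pass.

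**Figure D2:**
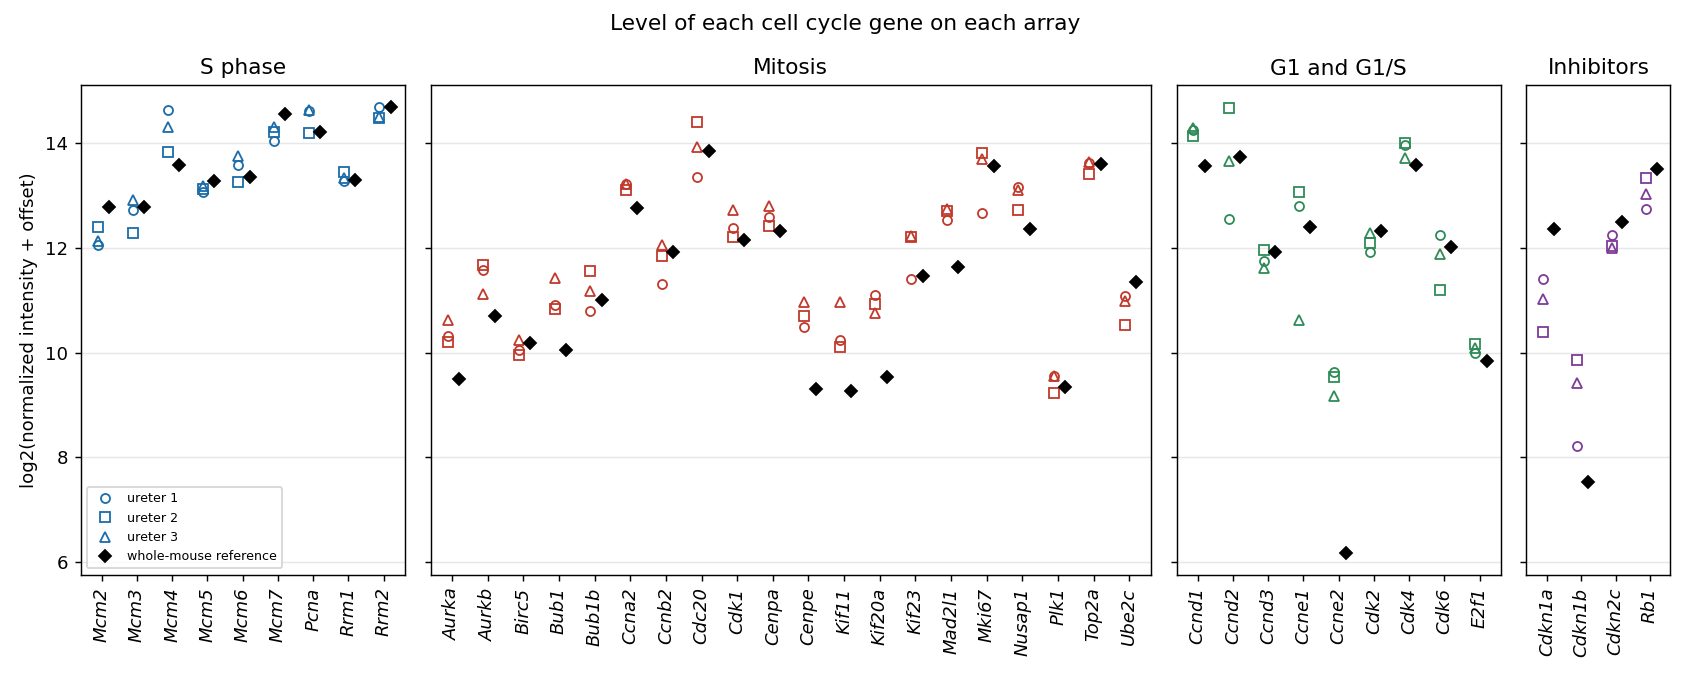
Level of each gene on each array, as log2(normalized intensity + offset), for 42 genes in 4 roles; open symbols are the 3 ureters and the black diamond is the whole-mouse reference. Levels of different genes come from different probes and are not comparable with one another; within a gene, the reference lies within or near the ureters except for a few such as Ccne2 and Cdkn1a.

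None of the 9 replication genes passed in either direction. Their 9 differences ran from -0.59 to 0.67 with a median of -0.13, and 0 passed at an unadjusted p under 0.05. Among all 23 tested probe sets of these genes, 1 was higher and 1 lower at that unadjusted p. Mcm2 to Mcm7 encode the 6 subunits of the helicase that opens DNA for copying. Mcm4 had the highest difference of the 9 replication genes, at 25331, 14633 and 20346 in ureters 1, 2 and 3 against 12294 in the reference (0.67 ± 0.33, adjusted p = 0.276). All 3 ureters exceeded the reference, but ureter 2 only slightly. Its other probe set gave 0.69 ± 0.23 and passed at the unadjusted p only (adjusted p = 0.136). Mcm2 was the lowest, at 4255, 5406 and 4466 against 7062 (-0.59 ± 0.31, adjusted p = 0.309), with every ureter below the reference, while its second probe set gave -0.11. Mcm7 likewise lay below in all 3 ureters (16839, 19052 and 20137 against 24048), a difference of -0.37 ± 0.21 that did not pass (adjusted p = 0.341). Its 3 other probe sets gave -0.20 to -0.41, all with every ureter below. Mcm3 (-0.13), Mcm5 (-0.14) and Mcm6 (0.17) differed little, and 1 further probe set of Mcm5 stood at 0.83 and 1 of Mcm3 at 1.05 without passing. The 6 subunits had no common direction under this scaling, whereas all 6 stood above 0 with median-centred arrays (0.25 to 1.47), none passing. With that centring the median of all probe sets was 0.60.

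Pcna, the sliding clamp that holds the polymerase on DNA, was at 25181, 18773 and 25454 in the ureters and 18895 in the reference. Ureters 1 and 3 were above the reference and ureter 2 was level with it (0.28 ± 0.25, adjusted p = 0.549, 95% interval -0.32 to 0.87). Rrm1 and Rrm2 are the subunits of ribonucleotide reductase, which makes the DNA building blocks. Rrm1 was at 9876, 11095 and 10346 against 9976, a difference of 0.06 ± 0.24 with an interval of -0.52 to 0.65. Rrm2 was at 26269, 22884 and 23212 against 26317, a difference of -0.13 ± 0.19. Its interval, -0.59 to 0.33, was the narrowest of all members, so a change of 2-fold in either direction lay outside it. A dimmer Rrm2 probe set was lower in every ureter (-1.21 ± 0.44, adjusted p = 0.166).

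The mitotic genes lay mostly on the higher side without passing. Of 20 genes, 15 had a difference above 0 (75.0%, against 55.1% of all genes) and 11 had all 3 ureters above the reference, against 39.9% of all genes, but 0 passed and the median was 0.36. At an unadjusted p under 0.05, 3 of 20 were higher and 0 lower (Cenpe, Kif20a and Mad2l1), against 1895 of all 13721 genes higher, a like share. Cenpe, a kinesin of the kinetochore, was at 1417, 1650 and 1981 in the ureters against 617. The groups did not overlap, and the difference was 1.42 ± 0.40 (adjusted p = 0.0991; 95% interval 0.44 to 2.40). Kif20a, a kinesin of cell cleavage, was at 2174, 1930 and 1717 against 727 (1.39 ± 0.38, adjusted p = 0.0900), again with every ureter more than 2-fold above the reference. Averaging each gene over its probe sets, which leaves fewer tests, gave Kif20a an adjusted p of 0.0435. Mad2l1, a spindle checkpoint gene, was at 5920, 6620 and 6874 against 3178 (1.02 ± 0.29, adjusted p = 0.10).

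The spindle motor gene Kif11 was at 1194, 1096 and 1988 against 607, with ureter 3 the highest (1.16 ± 0.48, adjusted p = 0.212). Its other tested probe sets gave 1.59 and 0.76 and did not pass either. The checkpoint kinase gene Bub1 differed by 1.00 ± 0.41 and the related Bub1b by 0.17 ± 0.42. The kinase genes Aurka, of the spindle poles, and Aurkb, of the chromosomal passenger complex, differed by 0.88 ± 0.40 and 0.77 ± 0.39, and all 3 ureters were above the reference for both. A second Aurkb probe set stood at 1.35 ± 0.38 (adjusted p = 0.0956). Birc5, another subunit of Aurkb's complex, stood at -0.10 ± 0.39 with 1 of 3 ureters above the reference. Nusap1 (0.64) and Kif23 (0.49), of the spindle and its midzone, and the centromeric histone gene Cenpa (0.29) lay between.

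Neither of the widely used proliferation markers Mki67 and Top2a passed. Their estimates were near 0 on the brightest probe set. With median-centred arrays they were 0.69 and 0.81, where the median of all probe sets was 0.60. Mki67, the source of the Ki-67 antigen, was at 6524, 14300 and 13285 in the ureters and 12023 in the reference. Ureter 1 was low and the others were slightly above the reference, so the groups overlapped (-0.16 ± 0.47, adjusted p = 0.876). Top2a, the topoisomerase that untangles chromosomes, was at 12656, 10813 and 12762 against 12335, a difference of -0.03 ± 0.24 with an interval of -0.62 to 0.55. A dim Top2a probe set stood at -2.98 ± 1.31 with a wide spread and did not pass (adjusted p = 0.233), and the mean of both probe sets was -1.51 (adjusted p = 0.171). Cdk1, the kinase of mitotic entry, was at 5279, 4698 and 6706 against 4507 (0.29 ± 0.33, adjusted p = 0.658). Its partner cyclins stood at 0.43 ± 0.25 for Ccna2, whose second probe set gave -0.07 ± 0.39, and -0.18 ± 0.41 for Ccnb2. The mitotic kinase gene Plk1 did not pass either (0.10 ± 0.42). Nor did Ube2c, the ubiquitin carrier of the anaphase complex, the lowest of the 20 at -0.48 ± 0.40. Cdc20, an activator of that complex, was at 10470, 21606 and 15609 against 14668, so the reference lay between the ureters (0.05 ± 0.40).

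**Figure D3:**
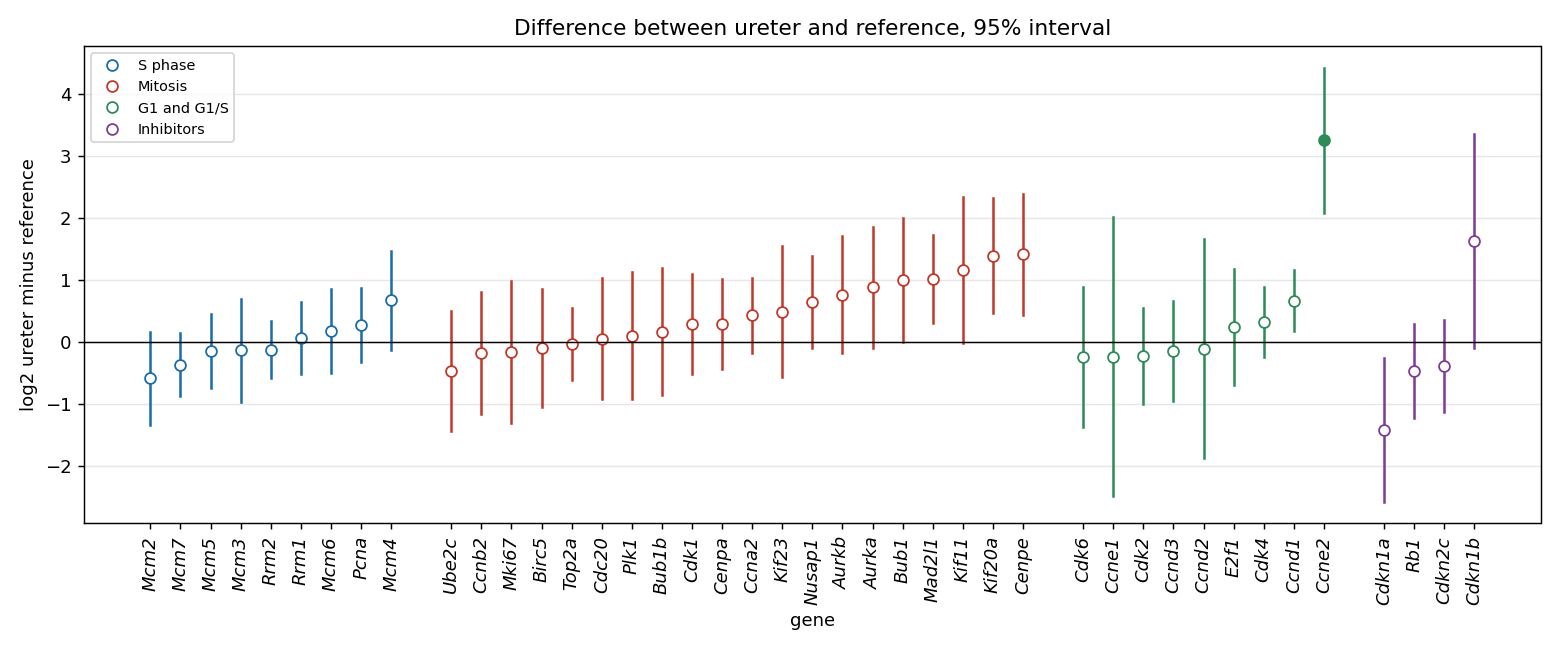
Difference (log2 ureter minus reference) of each of 42 genes, ordered within 4 roles; points are estimates, lines are 95% intervals of the limma fit, and a filled point passed the adjusted p. Ccne2 at 3.26 is the single filled point, most intervals include 0, and the mitotic genes reach 1.42.

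Among the G1 and G1/S genes the single call was Ccne2, 1 of the E-type cyclins that activate Cdk2 at the start of S phase. Ccne2 was at 777, 732 and 562 in the ureters (690 ± 113, SD, n = 3) and at 60.55 in the reference, where it was not above the background level of 127. The difference was 3.26 ± 0.48 (adjusted p = 0.0209), and against that background level Ccne2 was at least 5.0-fold higher in the ureters. It rests on 1 probe set. That probe set passed the filter on dim probe sets through its ureter level, so its direction may be set by the filter. Without the filter limma's adjusted p was 0.0468. The call was lost without ureter replicate 3 (3.30, adjusted p = 0.0865) and with the scaling as deposited (2.62, adjusted p = 0.0524). The adjusted p ranged from 0.00663 to 0.0865 over the alternatives, and all of them kept it higher.

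Ccne1 encodes the other E-type cyclin and did not pass. Its brighter probe set read 7118, 8560 and 1565 in the ureters against 5399, with ureter 3 far below the others (-0.24 ± 0.93, adjusted p = 0.909). The dimmer one read 1052, 895 and 1215 against 1089, a difference of -0.06 ± 0.41. Their kinase Cdk2 was below the reference in every ureter by a small margin (-0.22 ± 0.32). The difference between the 2 E-type cyclins was not itself tested.

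The D-type cyclins answer to growth signals and activate Cdk4 and Cdk6. Ccnd1 was at 19458, 17953 and 19932 in the ureters against 12010 in the reference, all 3 above it, and the difference of 0.67 ± 0.21 passed at the unadjusted p only (adjusted p = 0.118; 95% interval 0.17 to 1.17). Its other probe sets gave 0.48 and 0.59 with ureter 1 below the reference. Ccnd2 was at 6005, 25995 and 12916 against 13614 on its brightest probe set. This 4.32-fold range among the ureters left its direction undetermined there (-0.11 ± 0.73). Its other probe sets gave -0.09, 0.29, 0.27, 0.83, 0.84 and 1.17, none passing. Every ureter was above the reference only for 0.83, 0.84 and 1.17. Ccnd3 was at 3424, 3978 and 3105 against 3847, with the reference again between the ureters (-0.14 ± 0.33). Cdk4 was at 16036, 16447 and 13441 against 12231, slightly above the reference in all ureters (0.32 ± 0.23), with its other probe sets at 0.41 and 0.51. Cdk6 differed by -0.24 ± 0.47, and by 0.66 ± 1.00 on a dimmer probe set. The transcription factor gene E2f1 stood at 0.24 ± 0.39 on 1 probe set and at 1.55 ± 0.44 (adjusted p = 0.0980) on a dimmer one, so its probe sets do not give 1 size. The median of the 9 G1 and G1/S genes was -0.11, whereas over their 23 tested probe sets it was 0.32, with 15 above 0.

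None of the 4 inhibitor genes passed, and they did not share a direction. Cdkn1a encodes p21, the inhibitor that p53 induces. It was at 2715, 1333 and 2060 in the ureters against 5268 in the reference, lower in each ureter (-1.43 ± 0.48, adjusted p = 0.140, 95% interval -2.58 to -0.27). By brightest probe set it was the 1 member gene lower at an unadjusted p under 0.05. With median-centred arrays its difference was -0.60 (adjusted p = 0.645). Cdkn1b, which encodes p27, was at 288, 921 and 671 against 174, above the reference in each ureter but 3.11-fold apart between them (1.63 ± 0.71, adjusted p = 0.232). Its dimmer probe set gave 0.02 ± 1.19, so the direction of Cdkn1b rests on 1 probe set. Cdkn2c, an inhibitor of Cdk4 and Cdk6, was at 4853, 4161 and 4095 against 5718 (-0.39 ± 0.31), and Rb1 at 6811, 10307 and 8367 against 11564 (-0.46 ± 0.31), each below the reference in all ureters. The median of the 4 was -0.43.

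Further genes of the same pathways gave a few calls, each of them higher. Of 50 other mitotic genes 5 were higher and 0 lower, with a median of 0.51 and 40 differences above 0. These 5 of 50 stand beside 7.71% of all genes in either direction and 2.94% in the higher direction. At an unadjusted p under 0.05, 17 of the 50 were higher and 0 lower, against 1895 of all 13721 genes higher. Dlgap5, a spindle assembly gene, was at 674, 515 and 679 against 62.3, which was not above background, and so was at least 4.53-fold higher (adjusted p = 0.0242). Like Ccne2, Dlgap5 passed the filter on dim probe sets through its ureter level, so its direction may be set by the filter. Its dimmer probe set lay on the other side (-0.92, adjusted p = 0.538), and the mean of both did not pass (1.08, adjusted p = 0.246). The kinetochore genes Ndc80 (2.87 ± 0.42, adjusted p = 0.0201) and Cenpk (2.14 ± 0.37, adjusted p = 0.0289; the fifth called gene of this list, named after its value was seen) were higher, as were Depdc1a (2.70 ± 0.53, adjusted p = 0.0399) and the spindle gene Ckap2 (2.22 ± 0.41, adjusted p = 0.0335). Ndc80 read 1128, 1356 and 1511 in the ureters and 171 in the reference. Of 45 other replication genes 1 was higher, Tipin, which steadies the replication fork. Tipin read 5934, 5363 and 7273 against 1740 (1.81 ± 0.33, adjusted p = 0.0332). The median of the 45 was 0.47, with 9 higher and 1 lower at an unadjusted p under 0.05. Among 23 other G1/S control genes and 19 other inhibitors 0 passed by limma's adjusted p, with 3 and 4 higher and 1 and 0 lower at an unadjusted p under 0.05; their medians were 0.20 and 0.36. All 6 calls ended when ureter replicate 3 was left out, with adjusted p from 0.102 to 0.162, when 49 probe sets in all were called higher. Ndc80 kept its call under the other alternatives. Ckap2 lost it in 5 of 9 alternatives: also as deposited (adjusted p = 0.0534), median-centred (0.0571), without the intensity trend (0.0672) and without ureter replicate 1 (0.0505). Depdc1a lost it also as deposited (0.108), without the filter on dim probe sets (0.0718) and without the trend (0.0703). Dlgap5 lost it also as deposited (0.0594) and without the filter (0.0534), Tipin median-centred (0.0519) and without the trend (0.0819), and Cenpk without the trend (0.0594).

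Some markers of cell types outside the ureter were lower there. Among all genes tested, 4.77% were lower and 30.7% had every ureter below the reference. Of 7 tested erythroid genes 4 were lower in the ureters and 7 had every ureter below the reference; their summed level was 9614 to 13180 in the ureters against 49258. Of 9 genes of granulocyte precursors 5 were lower and 9 lay below in every ureter (summed level 1551 to 4440 against 48271), and Prtn3 was at background in all ureters. Of 13 listed thymocyte and lymphocyte genes only 6 were tested, 1 was lower and 4 lay below in every ureter. The 6 differences ran from -6.38 to 0.275 with a median of -0.48. The summed level of the 6 was 566 to 914 in the ureters against 2751, and Rag1 and Cd3g were at background in all ureters. Of 7 neural progenitor genes 5 lay below in every ureter and 1 was lower, Sox2, which was at background in all ureters. The summed level of the 7 was 2899 to 4904 in the ureters against 19632. A gene at background in every ureter can pass the filter on dim probe sets through its reference level alone, so its direction may be set by the filter. The summed level of the 20 mitotic members was 87745 to 108169 in the ureters and 82405 in the reference, and that of the 9 replication members 115541 to 135293 against 125927. The part of these cell types in the cell cycle values was not tested.

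**Figure D4:**
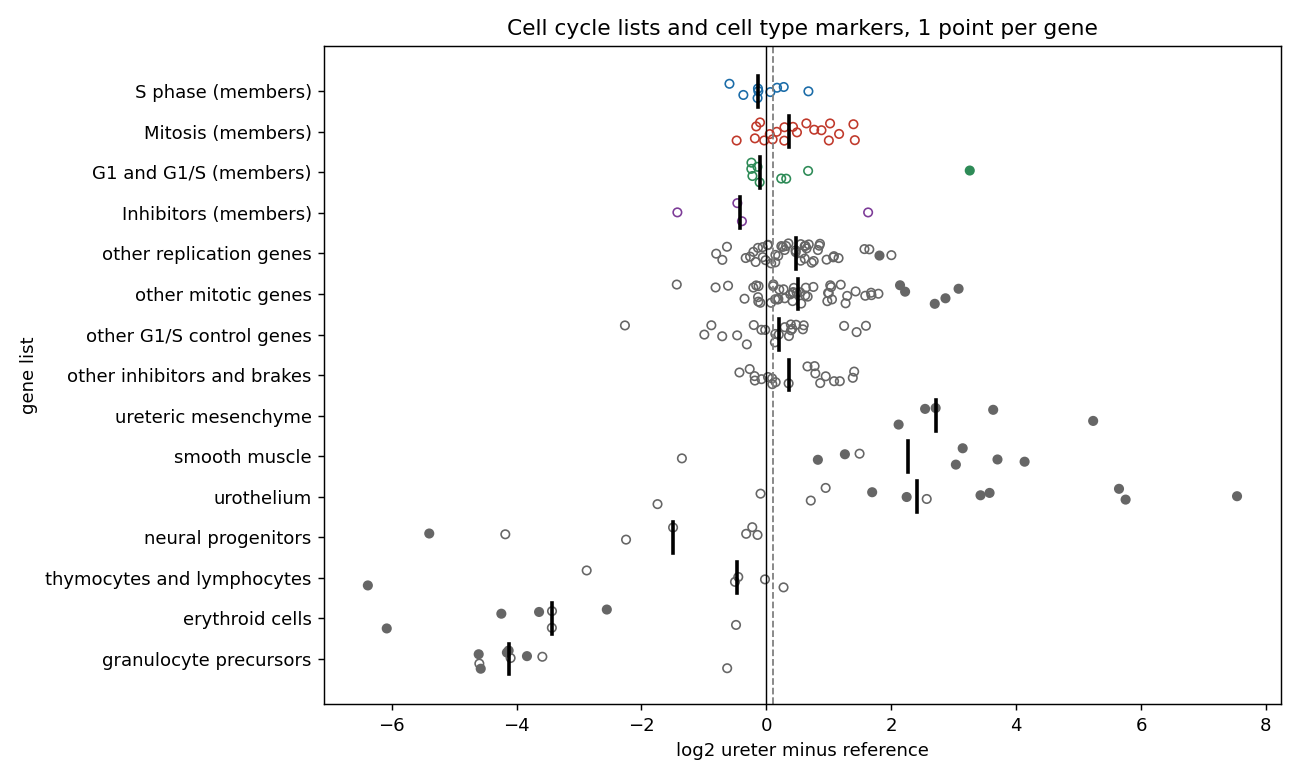
Difference (log2 ureter minus reference) of each gene, 1 point per gene, in the 4 member roles, 4 lists of other cell cycle genes and 7 lists of cell type markers; filled points passed the adjusted p, black bars are list medians and the dashed line is the median of all genes tested (0.10). The cell cycle lists have medians from -0.43 to 0.51, between the ureteric lists on the right (medians 2.26 to 2.71) and the erythroid and granulocyte lists on the left (-3.44 and -4.13).

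Between the 3 ureters the replication genes varied little on their brightest probe sets. Their median SD was 0.18 on the log2 scale and 0 of 9 were over 2-fold apart, against 0.25 and 2 of 20 for the mitotic genes and 0.32 and 24.3% for all genes. The lists were not matched for level: the median log2 level in the ureters was 13.53 for replication genes and 10.52 for all genes. Over the 23 tested probe sets of the replication genes the median SD was 0.25, and 1 was over 2-fold apart. Of the G1 and G1/S genes 3 of 9 were over 2-fold apart (Ccne1, Ccnd2 and Cdk6), and of the inhibitors 2 of 4 (Cdkn1a and Cdkn1b). Over all tested member probe sets 20 of 80 were over 2-fold apart (against 31.5% of all). In 15 of those 20 ureter 1 was the lowest and ureter 2 the highest, and in 3 the reverse held, while among all 8499 such probe sets the shares were 27.5% and 22.7%. The 15 were probe sets of Bub1b, Ccnd1, Ccnd2, Cdc20, Cdk6, Cdkn1b, Kif23, Mki67, Rrm1 and Top2a, so several share a gene. Rrm1 is an example, at 687, 8028 and 2736 on its dimmer probe set against 9876, 11095 and 10346 on the brighter.

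The beta-actin ratio and the nephron markers put the ureters in opposite orders, with ureter 1 highest in the ratio and lowest in the markers. The ratio of the 3′ to the 5′ probe set of beta-actin, a sign of how far toward the 5′ end the amplified RNA reached, was 4.89, 2.88 and 3.56 in ureters 1, 2 and 3 and 3.27 in the reference, whereas that of Gapdh was 16.6, 21.6, 21.0 and 19.8. The summed level of 8 nephron genes was 1632, 11058 and 5575 in the ureters and 5958 in the reference, with Slc12a1 at 50.2, 4205 and 711, Umod at 55.6, 2019 and 961 and neither above background in ureter 1; none of the 8 passed. The part of RNA quality or of kidney cells in the spread of the cell cycle genes was not tested.

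**Figure D5:**
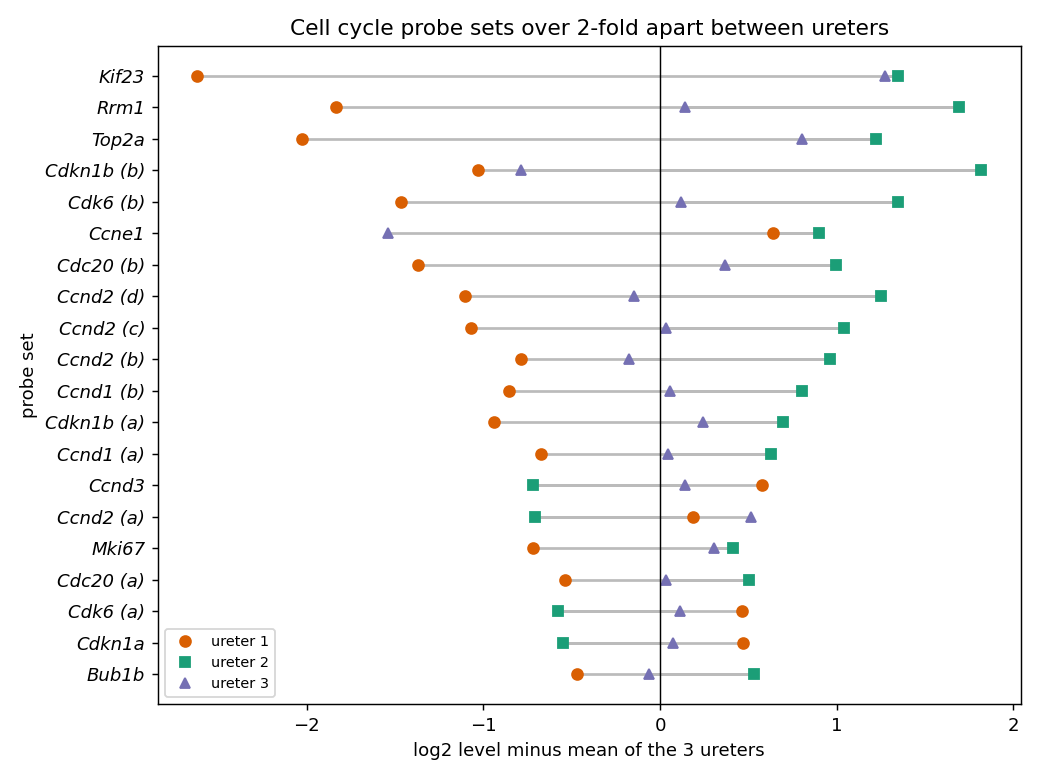
Level of each ureter minus the mean of the 3 ureters (log2) for the 20 tested cell cycle probe sets over 2-fold apart; letters tell probe sets of 1 gene apart. Ureter 1 is lowest and ureter 2 highest in 15 of the 20.

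The small differences depend on how the arrays were scaled. Median intensities before normalization were 154, 259 and 187 in the ureters and 332 in the reference. With arrays centred on their medians the median of all probe sets moved from 0.11 to 0.60, and the medians became 0.71 for replication genes, 1.20 for mitotic genes, 0.70 for G1 and G1/S genes and 0.42 for inhibitors. The medians of the replication genes, the G1 and G1/S genes and the inhibitors thus turned from below 0 to above it, while Cdkn1a stayed below (-0.60). With the scaling as deposited the medians were -0.02, 0.47, -0.03 and -0.31, where that of all probe sets was -0.13. By limma 0 member genes were lower under either scaling, while 1 was higher with median-centring and 0 as deposited.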

How the data were processed

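The deposited values are intensities, 1 per probe set and array, on a linear scale, and their trimmed mean was 1500 on every array as deposited; the submitters' processing notes name GCOS for the authors' processing, and further steps are not given in the sources used here. From these, values were quantile-normalized between arrays, an offset of 12.23 (the 10th percentile of deposited values) was added and log2 taken. The 64 control probe sets were left out, then the 40% of the others with the lowest mean, which left 27022. limma 3.58.1 (R 4.3.3) compared 3 ureters with 1 reference using an intensity trend, with 2 residual degrees of freedom, to which the lone reference adds none; p-values were adjusted by Benjamini-Hochberg over all tested probe sets, threshold 0.05. With 4 arrays, their number limits the precision.

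Probe sets were named through the platform annotation where it gave exactly 1 symbol (34945; 932 had several and 9160 none). A gene is its tested probe set of highest mean level. The background level of an array is its brightest bacterial control probe set; "at least" folds use it in place of a dimmer value. The members, gene lists and tests were chosen with earlier results of these data known. Members past the threshold, the 3 largest and 2 smallest differences of each role, and 8 well-known genes were given in full, with up to 4 called genes of each other list.

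The fit was tested on simulated data with the spread of each probe set drawn in several ways, since the outcome depended on that choice. Calls had the right direction under each way. Few or no changes of the size seen in most members were recovered, and in some runs the share of false calls exceeded the threshold, so a call here can be less certain than its adjusted p.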

Additional observations from a re-analysis of the deposited data

How the results depend on the processing

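No paired analysis was possible because the reference has 1 array and the groups share fewer than 2 replicate numbers. The replication median was -0.017 with the scaling as deposited, 0.71 with median-centred arrays, 0.11 with the mean of a gene's probe sets and -0.11 to 0.031 leaving out 1 ureter. The mitotic median was 1.20 median-centred and the inhibitor median -0.31 as deposited and 0.42 median-centred. The G1 and G1/S median was 0.70 median-centred, 0.41 with gene means and 0.047 to 0.27 leaving out 1 ureter. Member genes called higher by limma numbered 0 as deposited, 2 with gene means and 0 to 1 leaving out 1 ureter (0 without ureter replicate 3), and member probe sets 0 as deposited and 0 to 1. Over all probe sets, 725 were higher and 942 lower, against 444 and 882 as deposited and 721 and 780 median-centred; 401 were higher without the filter, 269 without the trend and 49 to 908 leaving out 1 ureter, with 272 to 1182 lower. The cause of these shifts was not tested.

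Of 378 member gene differences under alternatives 35 turned sign, in 22 genes, none of which passed. Median-centring gave Birc5 0.42, Ccnb2 0.63, Ccnd2 0.76, Ccnd3 0.67, Ccne1 0.59, Cdk2 0.62, Cdk6 0.59, Cdkn2c 0.45, Mcm2 0.25, Mcm3 0.71, Mcm5 0.71, Mcm7 0.38, Mki67 0.69, Rb1 0.38, Rrm2 0.58, Top2a 0.81 and Ube2c 0.27. The scaling as deposited gave Ccnd2 0.031, E2f1 -0.031, Plk1 -0.29 and Top2a 0.077. Gene means gave Ccnd2 0.46, Cdk6 0.21, Mcm3 0.28, Mcm5 0.35 and Rrm1 -0.22. Leaving out each ureter in turn gave ranges that crossed 0 in 9 genes: Bub1b -0.022 to 0.34, Ccnb2 -0.34 to 0.033, Ccnd2 -0.62 to 0.45, Ccne1 -0.70 to 0.54, Cdc20 -0.19 to 0.33, Cdk6 -0.46 to 0.047, Mcm3 -0.27 to 0.043, Mki67 -0.37 to 0.20 and Top2a -0.076 to 0.042.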
